A study of Mus musculus with 6 samples.

Results

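The 9 genes described here, P2ry12, P2ry13, Tmem119, Cx3cr1, Csf1r, Siglech, Gpr34, Olfml3 and Selplg, mark microglia in their resting, or homeostatic, state. They were picked by symbol from the 24459 genes of the gene table, as a list put together with earlier results of these data known, and 33 of the 75457 rows in the isoform table belong to them. RNA came from brain tissue around the haematoma of mice labelled WT, taken on day 5 after intracerebral haemorrhage (ICH), a bleed into the brain. All mice in the comparison had the bleed. 3 libraries came from mice given TEPP-46, an activator of the M2 isozyme of pyruvate kinase, and 3 from mice given the vehicle, on consecutive days after the bleed. The deposited tables name the vehicle libraries C1, C2 and C4 and the TEPP-46 libraries T1, T2 and T3, and those names are used below. No library of uninjured brain, and no other time point, was analysed here. The labels do not give the age, sex, substrain or dose, and they do not say whether replicates were separate mice, so every p-value here reflects how far these particular samples spread, which may be technical.

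Microglia are the resident macrophages of the brain. In undisturbed tissue they scan their surroundings with fine processes and keep high levels of a set of surface receptors that sense nucleotides, chemokines and lipids from neighbouring cells, under the control of PU.1 and other transcription factors and of transforming growth factor beta. Around an injury, microglia commonly lower these genes while they raise phagocytic and lysosomal genes, and macrophages from the blood enter. P2ry12, Tmem119 and Siglech are low in such blood-derived cells, whereas Csf1r, Cx3cr1 and Selplg are also expressed by monocytes and macrophages.

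The genes fall into several places of the genome, given here on GRCm38 with the GENCODE annotation. P2ry12 (ENSMUSG00000036353, chromosome 3, 59216272 to 59262871) and P2ry13 (ENSMUSG00000036362, chromosome 3, 59207892 to 59210882) are neighbours on the minus strand with 5389 bases between them, and both lie inside Med12l, a gene on the plus strand. Tmem119 (ENSMUSG00000054675, chromosome 5, 113793729 to 113800516) and Selplg (ENSMUSG00000048163, chromosome 5, 113818536 to 113832644) are separated by 18019 bases, also on the minus strand. Cx3cr1 (ENSMUSG00000052336) lies on chromosome 9 from 119901616 to 120069879, Siglech (ENSMUSG00000051504) on chromosome 7 from 55768178 to 55778925, Gpr34 (ENSMUSG00000040229) on chromosome X from 13632089 to 13640858 and Olfml3 (ENSMUSG00000027848) on chromosome 3 from 103722222 to 103738001. Csf1r has the identifier ENSMUSG00000024621.

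The promoters of the P2ry12 and P2ry13 pair are shown because these neighbours differed in how their counts followed the libraries, as described below. That difference was largest in C4, where P2ry13 had 8 counts, and a link between the sequences and the counts was not tested. Each sequence holds the 250 bases before the RefSeq start of the gene (GRCm38.p6), 5′ to 3′ on the minus strand, at chr3:59210883-59211132 for P2ry13 and chr3:59262986-59263235 for P2ry12. Capitals mark GAGGAAG, the core of binding sites of PU.1, the transcription factor that macrophages and microglia depend on.
P2ry13: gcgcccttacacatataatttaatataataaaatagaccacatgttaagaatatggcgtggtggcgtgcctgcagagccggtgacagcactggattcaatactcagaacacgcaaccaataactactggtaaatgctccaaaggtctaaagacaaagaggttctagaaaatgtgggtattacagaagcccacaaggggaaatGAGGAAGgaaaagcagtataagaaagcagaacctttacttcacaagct
P2ry12: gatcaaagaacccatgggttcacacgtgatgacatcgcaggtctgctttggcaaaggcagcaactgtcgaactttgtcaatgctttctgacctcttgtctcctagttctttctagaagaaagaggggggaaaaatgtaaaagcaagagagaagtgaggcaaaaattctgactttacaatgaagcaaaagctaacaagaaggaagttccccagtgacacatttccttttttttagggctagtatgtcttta
In the P2ry13 window the motif began 48 bases before the start, and in the P2ry12 window it was not found on either strand. The search covered these exact letters and this window only. The isoforms P2ry12-203 and P2ry12-202 start elsewhere, at 59227581 and 59220259, and the sequence before those starts was not searched. The reference table held promoter windows for 5 of the 9 genes, the other three being Olfml3, Siglech and Cx3cr1. GAGGAAG, searched on both strands, was in 1 of the 5 windows and in 10.6% of the 32851 windows of that length in the table. TGACTCA, the site of the AP-1 factors that activated macrophages use, was in 0 of the 5 and in 4.46% of all. A match of letters is a description of the sequence and not a measured binding site.

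Total gene counts were 5286426 to 5700598 in vehicle and 5307005 to 6025064 in TEPP-46. The 9 genes had from 8 counts (P2ry13 in C4) to 1564 counts (Csf1r in C2) in a library, so counting error was largest for P2ry13. All 9 were among the 14441 genes that passed the filter on low counts and were tested. Values are given as CPM, the count scaled by the library's total. The deposited gene count is the sum over a gene's isoforms, some of which share most of their sequence and have nearly equal counts, so levels are compared between libraries and not between genes. Vehicle libraries differed among themselves in markers of other cells: summed oligodendrocyte genes were 5370.2 CPM in C4 against 13446 and 13655 CPM in C2 and C1, and summed choroid plexus genes were 4968 CPM in C1 against 208 and 181 CPM in C2 and C4. Markers of astrocytes, oligodendrocytes and neurons, 8 genes each, were counted in every library.

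The comparison of TEPP-46 with vehicle asks whether these microglia genes differ in the injured tissue when pyruvate kinase M2 is activated. None of the 9 genes was called as changed. The quasi-likelihood test of edgeR, with Benjamini-Hochberg adjustment over all tested genes, called 0 of 9, where it called 0% of all genes, and 0 of 9 had an unadjusted p under 0.05, against 5.93% of all. DESeq2 called 0 of 9, against 0.553% of all. The fitted log2 fold changes, TEPP-46 over vehicle, were positive for 4 genes and negative for 5, from -0.32 (Siglech) to 0.23 (P2ry13), with a median of -0.05 beside a median of 0.01 over all tested genes. The groups overlapped for each of the 9 genes, whereas they did not overlap for 11.4% of all tested genes. A p that misses the threshold does not show that the levels were alike, and the 95% confidence intervals of the fold changes spanned from 0.81 (P2ry12) to 2.34 (Olfml3) on the log2 scale. In bulk tissue, fewer microglia and less RNA per microglial cell cannot be told apart.

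**Figure D1:**
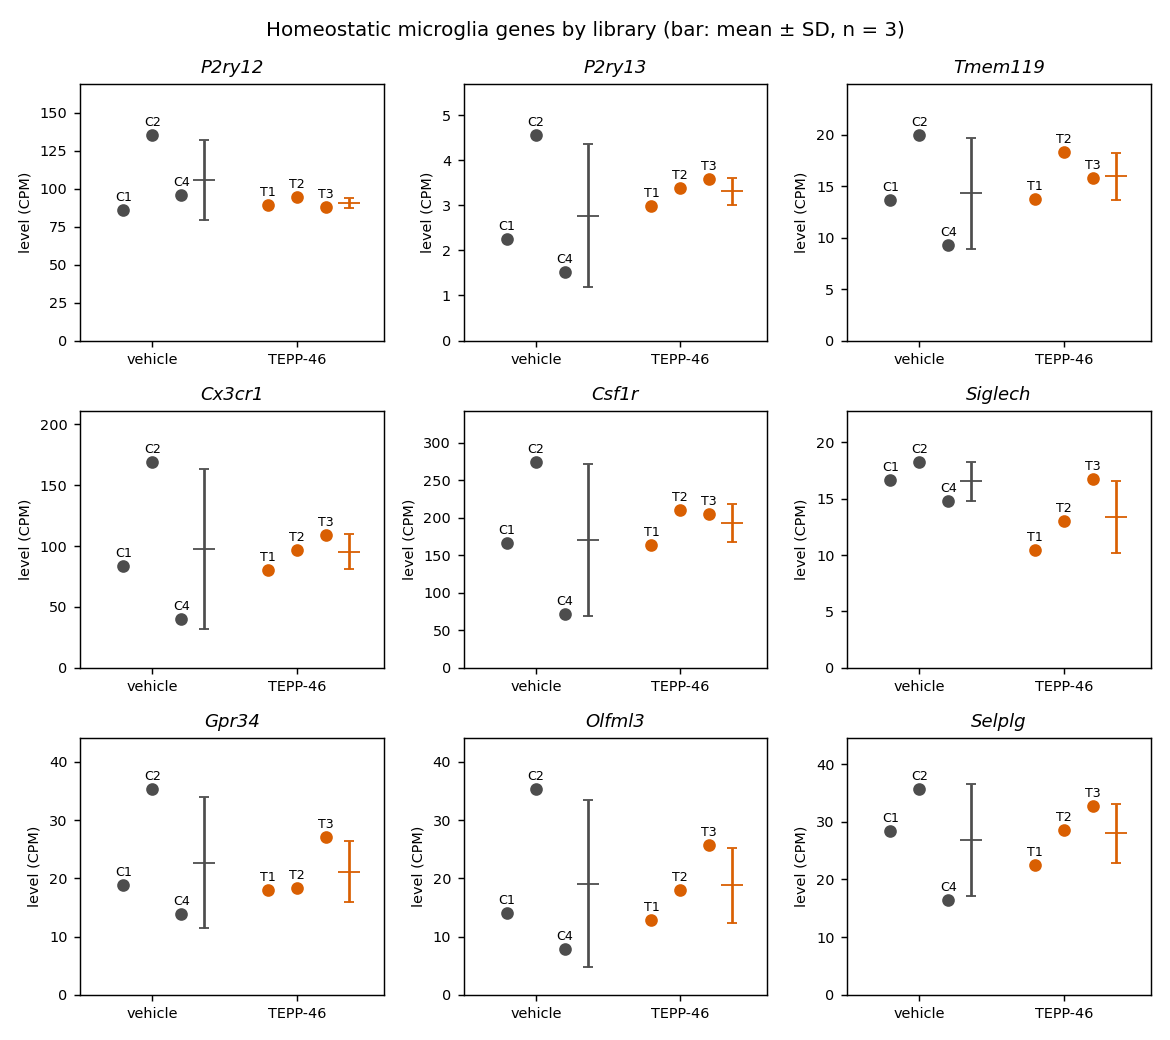
CPM of each of the 9 genes in the 3 vehicle libraries (C1, C2, C4) and the 3 TEPP-46 libraries (T1, T2, T3), 1 panel per gene with its own axis, with bars for the group mean and its SD (n = 3). C2 is the highest library in all 9 panels, and C4 is the lowest in 7 of them.

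The extremes lay within the vehicle group. C2, a vehicle library, had the highest CPM for 9 of 9 genes, and C4, another vehicle library, the lowest for 7 of 9. Over all tested genes C2 was highest for 15.1%, C4 lowest for 25.3%, and both held for 5.83%. For 8 of the 9 genes the range of the TEPP-46 libraries lay wholly inside the range of the vehicle libraries, as it did for 25.7% of all tested genes. Siglech was the exception. The coefficient of variation was larger in vehicle than in TEPP-46 for 8 of 9 genes, and again Siglech was the exception. The difference in spread between groups was not tested.

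Of the purinergic receptors, P2ry12 encodes the ADP receptor through which microglia send processes towards injured cells, and is a widely used marker of resting microglia. It measured 85.8, 135 and 95.9 CPM in C1, C2 and C4, against 89.1, 94.6 and 88.0 CPM in T1, T2 and T3. All libraries except C2 lay close together, and the 3 TEPP-46 libraries fell between the lowest and the highest vehicle library. The mean was 106 ± 26.2 CPM in vehicle libraries and 90.6 ± 3.54 CPM in TEPP-46 libraries (SD, n = 3 each), and the fitted log2 fold change was -0.24 (SE 0.18, 95% confidence interval -0.64 to 0.17; adjusted p = 0.971, edgeR with Benjamini-Hochberg adjustment). Without C2 the log2 fold change was -0.01. The highest library held 1.58 times the CPM of the lowest, below the median of 1.74 over all tested genes.

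P2ry13 encodes a related ADP receptor that lies beside P2ry12 in the genome and is also enriched in microglia. It measured 2.25, 4.56 and 1.51 CPM in C1, C2 and C4, from 12, 26 and 8 counts, and 2.99, 3.38 and 3.58 CPM in T1, T2 and T3, from 18, 19 and 19 counts. The vehicle libraries held both extremes and the TEPP-46 libraries lay between them. Its means were 2.77 ± 1.59 CPM in vehicle libraries and 3.32 ± 0.301 CPM in TEPP-46 libraries (SD, n = 3 each; log2 fold change 0.23, SE 0.43; adjusted p = 0.997, edgeR with Benjamini-Hochberg adjustment). The pair thus differed in C4: centred on its own mean over the 6 libraries, log2 CPM in C4 was -0.01 for P2ry12 and -0.88 for P2ry13, the latter from 8 counts. Whether counting used the strand is not given in the sources used here, so reads of Med12l could not be told from those of its 2 inner neighbours by strand. Med12l had 90, 114 and 30 counts in libraries C1, C2 and C4, against 88, 58 and 50 in T1, T2 and T3. The lowest Med12l count was thus in C4, where P2ry12 had 507 counts and P2ry13 had 8, its own lowest. The highest Med12l count was in C2, the highest library of P2ry12 and P2ry13 as well. The part of Med12l reads in the counts of either gene was not tested.

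Among the receptors for cytokines and chemokines, Csf1r encodes the receptor for CSF1 and IL-34, on which the survival of microglia depends. It measured 167, 274 and 71.1 CPM in C1, C2 and C4, against 164, 209.9 and 206 CPM in T1, T2 and T3. C2 was above and C4 below every TEPP-46 library, and C1 was close to T1. Means were 171 ± 102 CPM in vehicle libraries and 193 ± 25.5 CPM in TEPP-46 libraries (SD, n = 3 each), and the fitted log2 fold change was 0.16 (SE 0.43, 95% confidence interval -0.86 to 1.18; adjusted p = 0.997, edgeR with Benjamini-Hochberg adjustment). The direction rested on C4: the log2 fold change was -0.21 without it. It stayed positive without any other single library, and was 0.70 without C2.

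Cx3cr1 encodes the receptor for fractalkine, a chemokine that neurons carry on their surface. It measured 83.7, 169 and 39.9 CPM in C1, C2 and C4, against 80.3, 96.4 and 109 CPM in T1, T2 and T3. The order of the libraries was that of Csf1r with T2 and T3 exchanged. The means of 97.5 ± 65.6 CPM in vehicle libraries and 95.3 ± 14.5 CPM in TEPP-46 libraries (SD, n = 3 each) gave a log2 fold change of -0.05 (SE 0.47; adjusted p = 0.998, edgeR with Benjamini-Hochberg adjustment). Without C2 it was 0.62 and without C4 -0.42. Annotated neighbours overlap the ends of these genes on the other strand, Wdr48 at Cx3cr1 with 194 to 268 counts and Hmgxb3 at Csf1r with 71 to 120 counts per library. Other genes lie inside the annotated body of Cx3cr1. Among them, on its own strand, are Gorasp1 with 61 to 113 counts, Csrnp1 with 10 to 42 counts and Xirp1 with 0 to 1 counts per library.

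The ligands of these receptors come in large part from other brain cells, and Cx3cl1 and Il34 varied less between libraries than the receptors did. Cx3cl1, which encodes fractalkine, was between 201 and 232 CPM in all 6 libraries (log2 fold change 0.07, SE 0.11; adjusted p = 0.993, edgeR with Benjamini-Hochberg adjustment), a highest-to-lowest ratio of 1.15 against 4.23 for Cx3cr1. Il34, a ligand of CSF1R made by neurons, was 59.7, 61.0 and 68.9 CPM in C1, C2 and C4, against 58.9, 51.0 and 56.7 CPM in T1, T2 and T3. Every TEPP-46 library was below every vehicle library, but the gap between T1 and C1 was under 1 CPM and the log2 fold change of -0.20 (SE 0.14) did not pass (adjusted p = 0.956, edgeR with Benjamini-Hochberg adjustment). Csf1, the other ligand, ran from 8.13 CPM in C4 to 18.1 CPM in T3 and C2 (log2 fold change 0.34, SE 0.30; adjusted p = 0.981, edgeR with Benjamini-Hochberg adjustment). Il34 and Csf1 are named for their role, outside the naming rule, after their values were seen.

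Of the remaining surface proteins, Siglech encodes a member of the Siglec family of lectins that signals through the adaptor DAP12, and is used to tell microglia from other macrophages of the brain. It measured 16.7, 18.2 and 14.8 CPM in C1, C2 and C4, against 10.5, 12.98 and 16.8 CPM in T1, T2 and T3. T1 and T2 were below every vehicle library and T3 was among them. Means were 16.6 ± 1.75 CPM in vehicle libraries and 13.4 ± 3.18 CPM in TEPP-46 libraries (SD, n = 3 each), and the fitted log2 fold change was -0.32 (SE 0.23, 95% confidence interval -0.83 to 0.19; adjusted p = 0.965, edgeR with Benjamini-Hochberg adjustment). The estimate was negative whichever single library was left out (-0.51 to -0.17), but it shrank to -0.03 when the count of the most abundant isoform stood for the gene, a setting chosen after the data were seen. Siglech is also a marker of plasmacytoid dendritic cells. The 7 markers of that cell type, Siglech included, summed to 265 to 419.9 CPM in vehicle and 328 to 432 CPM in TEPP-46 (4 tested, 2 positive, 2 negative), most of it from Tcf4 (237 to 405 CPM), which neurons and glia also express. Irf8 (4.73 to 23.7 CPM) and Bst2 (7.38 to 23.7 CPM), both shared with other myeloid cells, were highest in C2 and lowest in C4. Ccr9 was at 0.356 to 1.40 CPM, Ly6d at 0 to 0.375 CPM and Klk1 at 0 to 0.166 CPM. The part of that cell type in the Siglech values was not tested.

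Tmem119 encodes a membrane protein that in the brain is found on microglia and not on blood-derived macrophages. It measured 13.7, 20.0 and 9.27 CPM in C1, C2 and C4, against 13.8, 18.3 and 15.8 CPM in T1, T2 and T3 (log2 fold change 0.14, SE 0.29; adjusted p = 0.997, edgeR with Benjamini-Hochberg adjustment). C1 and T1 were almost the same, and the TEPP-46 libraries lay within the vehicle range. Gpr34, which encodes a receptor for lysophosphatidylserine, measured 18.9, 35.3 and 13.8 CPM in C1, C2 and C4, against 17.9, 18.3 and 27.1 CPM in T1, T2 and T3 (log2 fold change -0.12, SE 0.34; adjusted p = 0.997, edgeR with Benjamini-Hochberg adjustment). C2 and T3 stood above the other four. Gpr34 lies inside Cask, a gene on the other strand with 298 to 453 counts, whose lowest library was C2, the highest of Gpr34.

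Selplg encodes PSGL-1, the ligand of the selectins, which leukocytes also carry. It measured 28.5, 35.6 and 16.5 CPM in C1, C2 and C4, against 22.6, 28.6 and 32.8 CPM in T1, T2 and T3 (log2 fold change 0.04, SE 0.28; adjusted p = 0.998, edgeR with Benjamini-Hochberg adjustment). The groups overlapped throughout, with C4 apart at the low end. Of its selectin partners, Sele was at 0 counts in all 6 libraries and Selp at 0 to 0.188 CPM.

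Olfml3, the one gene among the 9 whose product is secreted, encodes an olfactomedin-like matrix protein. It measured 14.0, 35.3 and 7.94 CPM in C1, C2 and C4, against 12.8, 18.0 and 25.6 CPM in T1, T2 and T3. C2 held 4.44 times the CPM of C4, the widest ratio among the 9 genes, and the TEPP-46 libraries filled the middle of that range. The log2 fold change was -0.05 (SE 0.51; adjusted p = 0.998, edgeR with Benjamini-Hochberg adjustment), 0.76 without C2 and -0.42 without C4.

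**Figure D2:**
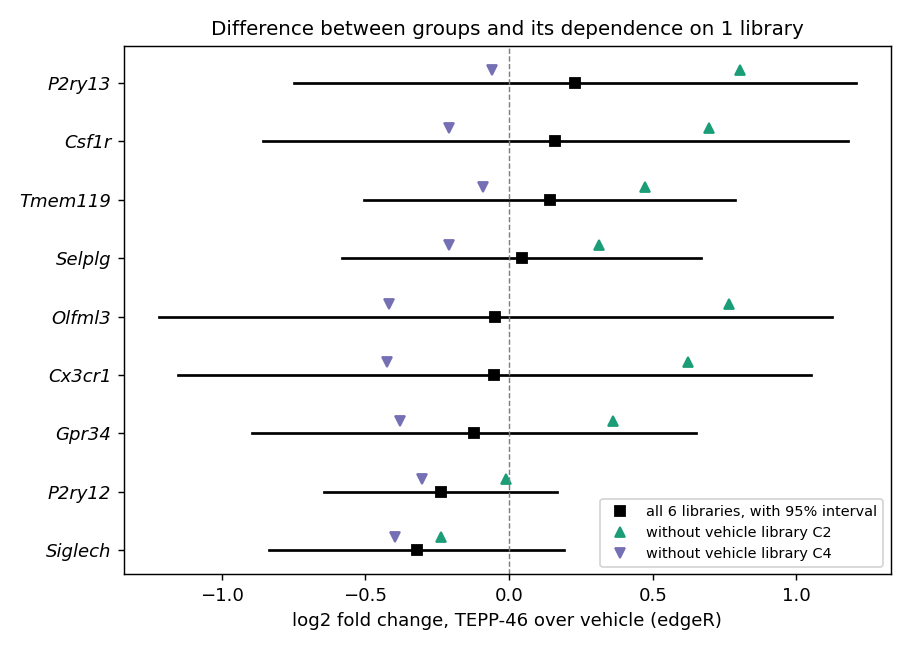
Fitted log2 fold change (TEPP-46 over vehicle) of each of the 9 genes with its 95% confidence interval, from all 6 libraries and with C2 or C4 left out. Every interval from all libraries crosses 0. All 9 estimates are negative without C4, and 7 of 9 are positive without C2.

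The direction of the whole set depended on which single library was left out, C2, C4 and T1 among them. Without C2, 7 of the 9 genes had a positive fold change and the median was 0.47. Without C4, 9 of 9 had a negative one and the median was -0.30. edgeR called none of the 9 in either case, with smallest Benjamini-Hochberg adjusted p-values of 0.483 and 1.00, and 1 of 9, Csf1r, had an unadjusted p under 0.05 without C2. Over all genes the same fits called 43 without C2 and 0 without C4. The share of all genes with an unadjusted p under 0.05 without C2 was not counted, so the 1 of 9 has no background beside it. With T1, a TEPP-46 library, left out, 6 of the 9 genes had a positive fold change and the median was 0.17. Summed over the 9 genes, CPM was 431, 728 and 271 in C1, C2 and C4, against 414, 500.5 and 525 in T1, T2 and T3. The group means of the sum were 476 ± 232 and 479.7 ± 58.4 CPM (SD, n = 3 each), a difference of 3.39 CPM, below the SD of either group. The difference was -1.70 CPM with TMM-scaled totals, 129 CPM without C2 and -99.4 CPM without C4.

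**Figure D3:**
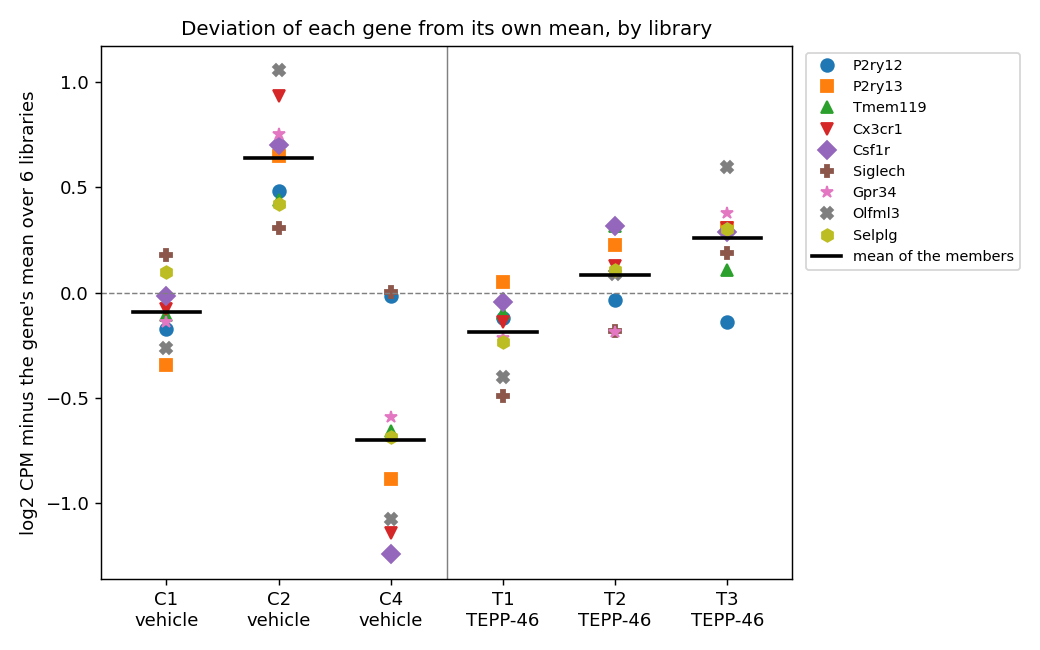
Log2 CPM of each gene minus its own mean over the 6 libraries (vertical axis, log2 units), by library (horizontal axis). The mean of the 9 genes runs from -0.70 in C4 to 0.64 in C2, and in C4 P2ry12 and Siglech stay at -0.01 and 0.00 while Csf1r and Cx3cr1 reach -1.25 and -1.15.

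The 9 genes did not move in one block across the libraries. Centred on each gene's own mean, log2 CPM averaged -0.09, 0.64 and -0.70 over the 9 genes in C1, C2 and C4, against -0.19, 0.09 and 0.26 in T1, T2 and T3. In C4, Csf1r stood at -1.25, Cx3cr1 at -1.15 and Olfml3 at -1.08, whereas P2ry12 stood at -0.01 and Siglech at 0.00. The closest pair of profiles was Cx3cr1 and Csf1r, with a root mean square difference of 0.14 log2 units over the 6 libraries, followed by Tmem119 and Selplg, neighbours on chromosome 5, at 0.15. Nearest to Olfml3 was Cx3cr1 (0.19), to P2ry13 was Tmem119 (0.19) and to Gpr34 was Selplg (0.21). P2ry12 and Siglech were each other's nearest (0.26), and Csf1r and Siglech were the farthest apart (0.61). These distances share the same 6 libraries and are descriptions.

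The ratio of each gene to Csf1r within a library restates the centred log2 CPM above and is no separate evidence of a separation. Csf1r had the lowest centred value of the set in C4 (-1.25). The ratio of every other gene was therefore above its own mean there, on the log2 scale. P2ry12 counts were 0.514, 0.494 and 1.35 times the Csf1r counts in libraries C1, C2 and C4, against 0.544, 0.451 and 0.428 times in T1, T2 and T3. C4 stood alone, and the other five libraries were close together. Siglech counts were 0.10, 0.0668 and 0.208 times those of Csf1r in C1, C2 and C4, against 0.0643, 0.0623 and 0.0819 times in T1, T2 and T3, again with C4 highest. A ratio highest in C4 was not particular to P2ry12 and Siglech. It held also for P2ry13 (0.0226), Tmem119 (0.131), Gpr34 (0.195) and Selplg (0.232), whereas Cx3cr1 and Olfml3 were highest in C2. For Cx3cr1 the ratio kept between 0.460 and 0.616 in all 6 libraries. Between the groups the log2 ratio, TEPP-46 minus vehicle, differed by -0.57 for P2ry12 (exact two-sided permutation p = 0.3), -0.70 for Siglech (exact permutation p = 0.2) and -0.18 for Cx3cr1 (exact permutation p = 0.2), each with a Benjamini-Hochberg adjusted p of 0.6 over the 8 genes compared. The smallest p that 3 against 3 libraries allow is 0.1, so this test could not pass the threshold. Without C4 the difference for P2ry12 was -0.09 and for Siglech -0.25.

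**Figure D4:**
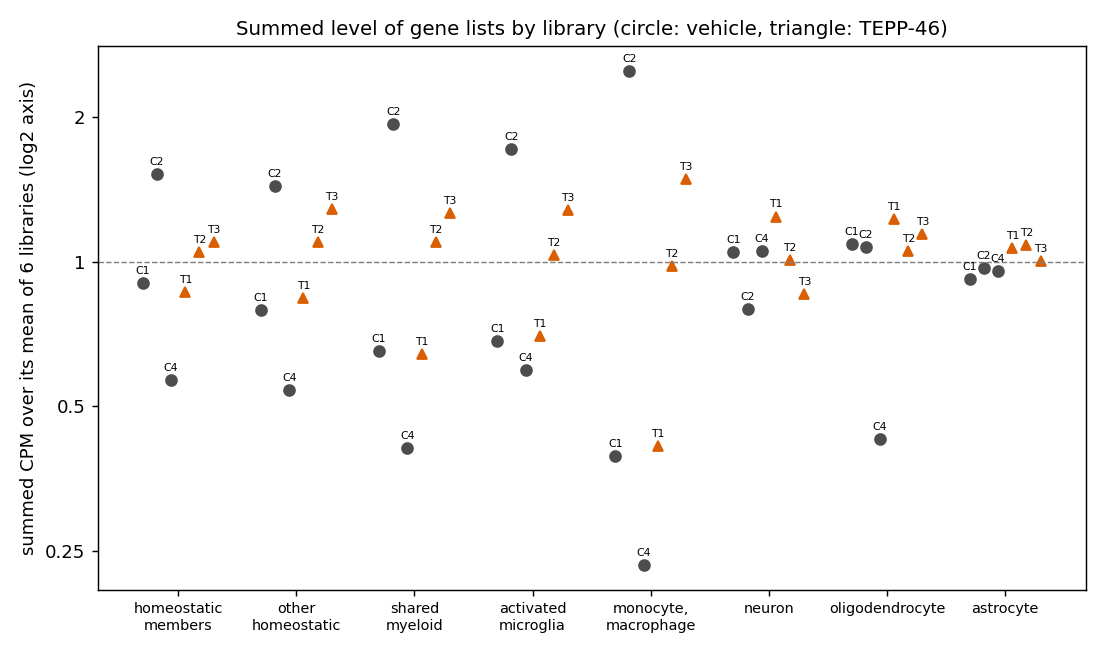
Summed CPM of gene lists in each library, divided by the list's mean over the 6 libraries, on a log2 axis (circles vehicle, triangles TEPP-46). The 4 other microglial and myeloid lists are highest in C2 and lowest in C4 like the 9 genes, the monocyte and macrophage list over the widest range. The summed astrocyte list stays near 1, although 6 of its 8 genes are highest in C2.

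Beside the 9 genes, 17 lists of related genes and of markers of other cells were read from the same fit. Of their 171 genes, 134 were tested. edgeR with Benjamini-Hochberg adjustment called 0 of them and DESeq2 called 0, and 2 (Smad4 and Clic6) had an unadjusted p under 0.05 in edgeR's test. Other homeostatic microglia genes were, summed, likewise highest in C2 and lowest in C4. Of 19 other homeostatic microglia genes, 18 were tested, 8 with a positive and 10 with a negative fold change, with a median log2 fold change of -0.12. Their sum was 908, 1646 and 619 CPM in C1, C2 and C4, against 962, 1255 and 1475 CPM in T1, T2 and T3. Sparc, a matrix protein of microglia and of vessel cells, ran from 138 CPM in C4 to 621 CPM in T3 (log2 fold change 0.49, SE 0.47; adjusted p = 0.985, edgeR with Benjamini-Hochberg adjustment).

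Of 12 transcription factor genes of microglia, 11 were tested, 7 positive and 4 negative, and edgeR called 0. Smad4, the shared partner of SMAD proteins in transforming growth factor beta signalling, was the 1 gene with an unadjusted p under 0.05. It measured 7.12, 4.56 and 4.35 CPM in C1, C2 and C4, against 9.79, 9.25 and 9.42 CPM in T1, T2 and T3, with all TEPP-46 libraries above all vehicle libraries (log2 fold change 0.82, SE 0.27; adjusted p = 0.657, edgeR with Benjamini-Hochberg adjustment). Spi1, which encodes PU.1, was 4.49, 12.1 and 3.78 CPM in the vehicle libraries and 1.66, 5.51 and 6.03 CPM in the TEPP-46 libraries, and it did not pass (log2 fold change -0.66, SE 0.57; adjusted p = 0.980, edgeR with Benjamini-Hochberg adjustment). The 2 most abundant of the list, Mef2c and Mef2a, are also expressed by neurons, and had log2 fold changes of 0.05 and 0.03.

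Of 16 ligands and signalling partners, 11 were tested, 8 positive and 3 negative, and edgeR called 0, with 0 at an unadjusted p under 0.05. Tyrobp, which encodes the DAP12 adaptor of Siglec-H, ran from 109 CPM in C4 to 587 CPM in C2 and had a log2 fold change of 0.06 (SE 0.66; adjusted p = 0.998, edgeR with Benjamini-Hochberg adjustment). Kcnk13, a potassium channel whose activity in microglia P2RY12 raises, was 7.94 CPM in C4 and 22.1 CPM in C2, with the TEPP-46 libraries between 11.6 and 13.8 CPM. Tgfb1, the growth factor that maintains the homeostatic state, was under the filter on low counts, with 6, 11 and 8 counts in libraries C1, C2 and C4, against 1, 0 and 1 in T1, T2 and T3. Every TEPP-46 library was below every vehicle library. In the fit without the filter its log2 fold change was -3.49 (SE 0.84), and it was not called (adjusted p = 0.333, edgeR with Benjamini-Hochberg adjustment). With 25 counts in vehicle and 2 in TEPP-46 it rests on few reads, and the fitted size depends on the prior count. Smad4, Spi1, Kcnk13 and Tgfb1 are named outside the naming rule, after their values were seen.

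Sums of 3 further myeloid lists were also highest in C2 and lowest in C4, over a wider range than the sum of the 9 genes. The 14 shared myeloid genes, all tested (9 positive, 5 negative, 0 called by edgeR), summed to 1046, 3101 and 655 CPM in C1, C2 and C4, against 1029, 1761 and 2024 CPM in T1, T2 and T3, a highest-to-lowest ratio of 4.74 against 2.69 for the sum of the 9 genes. The 20 activated microglia genes (18 tested, 11 positive, 7 negative) summed to 9620.5 to 27673 CPM in vehicle and 11289 to 20679.6 CPM in TEPP-46. Most of that sum was Apoe, at 7846 CPM in C4 and 16421 CPM in C2, its lowest and highest libraries. The 10 monocyte and infiltrating macrophage genes (7 tested, 4 positive, 3 negative) summed to 117, 742 and 69.4 CPM in C1, C2 and C4, against 123, 292 and 441 CPM in T1, T2 and T3, a ratio of 10.7. Border macrophage genes (9, of which 4 were tested, 2 positive and 2 negative) summed to 15.4 to 67.0 CPM in vehicle and 17.3 to 42.8 CPM in TEPP-46. The 8 neutrophil markers summed to 1.70 CPM in C4 and 45.1 CPM in C2, again the lowest and the highest library. Most of that sum was Lcn2, at 0.757 CPM in C4 and 40.0 CPM in C2, which astrocytes of injured brain also express, while Ly6g and Retnlg were at 0 counts in all libraries. Lymphocyte markers summed to 3.18 to 12.1 CPM. Red blood cell genes (5 tested, 5 positive) summed to 458, 1053 and 319 CPM in C1, C2 and C4, against 559.8, 645 and 748 CPM in T1, T2 and T3, again highest in C2 and lowest in C4. The part of these cells and of blood in the values of the 9 genes was not tested.

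Summed, lists of other brain cells had other orders of libraries, though single genes could differ from their sum. Neuron genes (8 tested, 5 positive, 3 negative) summed highest in T1 (4143 CPM) and lowest in C2 (2655 CPM). Astrocyte genes had positive fold changes for 8 of 8, with a median of 0.11 on the log2 scale, and edgeR called 0. They summed to 3654 to 3841 CPM in vehicle and 3983 to 4293 CPM in TEPP-46. These ranges of the sum did not overlap, although the groups overlapped for each of the 8 genes taken singly. Most of that sum was Aldoc (1380 CPM in C2 to 2018 CPM in C4) and Slc1a2 (1405 CPM in C4 to 1968 CPM in T2). Taken singly, 6 of the 8 astrocyte genes were highest in C2 and 6 were lowest in C4. Oligodendrocyte genes, led by Mbp, also had positive fold changes for 8 of 8, with a median of 0.38. Their sum was lowest in C4, as 7 of the 9 genes were, but not highest in C2. Choroid plexus genes (5 tested, 5 positive, median 0.99) were highest in C1 (4968 CPM), and Clic6, one of them, had a log2 fold change of 1.27 (SE 0.47; adjusted p = 0.731, edgeR with Benjamini-Hochberg adjustment). Endothelial genes (7 tested, 4 positive, 3 negative) summed to 206 to 280.1 CPM and cell division genes (7 tested, 4 positive, 3 negative) to 44.2 to 75.1 CPM over the 6 libraries. Both sums were highest in C2 and lowest in C1. Clic6, Spp1, Irf8, Bst2, Ccr9, Ly6d, Klk1, Sele, Selp, Ly6g and Retnlg are named outside the naming rule, after their values were seen.

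Of the genes outside the 9 that resembled them most over the 6 libraries, the nearest was Plod1, a collagen lysyl hydroxylase, with a root mean square difference of 0.08 log2 units from the mean profile. Npc2, a lysosomal cholesterol carrier, followed at 0.08, then Epb41l2 (0.08), Pdlim2 (0.10) and Gltp (0.10). The median over 8765 genes with a mean of 10 CPM or more was 0.47. Npc2 measured 75.3, 134 and 49.8 CPM in C1, C2 and C4, against 82.7, 88.2 and 104 CPM in T1, T2 and T3. Tyrobp lay at 0.43 and Spp1, a gene of activated microglia that ran from 108 CPM in C4 to 3734 CPM in C2, at 1.54.

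The isoform table held 33 rows for the 9 genes, 3 of them new isoforms without a reference identifier, and 21 passed the filter on low counts. Of the 12 others, Olfml3-204 was at 0 in all libraries. edgeR called 0 of the 21, as it called 0% of all 33854 isoforms tested. DESeq2 called 0 of the 32 member isoforms it fitted. Over all isoforms it called 148, from a table of 75457 rows, and the share of those it tested was not counted. 0 of the 21 had an unadjusted p under 0.05, against 5.77% of all. Fold changes were positive for 7 and negative for 14, from -0.66 to 0.22 on the log2 scale, with a median of -0.09. 1 of the 21, Siglech-208, had groups that did not overlap, against 10.9% of all isoforms tested.

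Siglech-208 (chromosome 7, 55768236 to 55777606) is a short coding isoform of 833 bases. It had 17, 29 and 17 counts in libraries C1, C2 and C4, against 16, 11 and 15 in T1, T2 and T3. The lowest vehicle library was only 1 count above the highest TEPP-46 library. Its log2 fold change of -0.66 (SE 0.34, 95% confidence interval -1.40 to 0.08) did not pass (adjusted p = 0.935, edgeR with Benjamini-Hochberg adjustment). Siglech-201 and Siglech-202, the longer coding isoforms, had log2 fold changes of -0.04 and -0.19. Siglech-204, annotated as a target of nonsense-mediated decay and under the filter, had 9, 13 and 17 counts in vehicle and 9, 9 and 5 in TEPP-46. No Siglech isoform had more than 33 counts in a library.

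**Figure D5:**
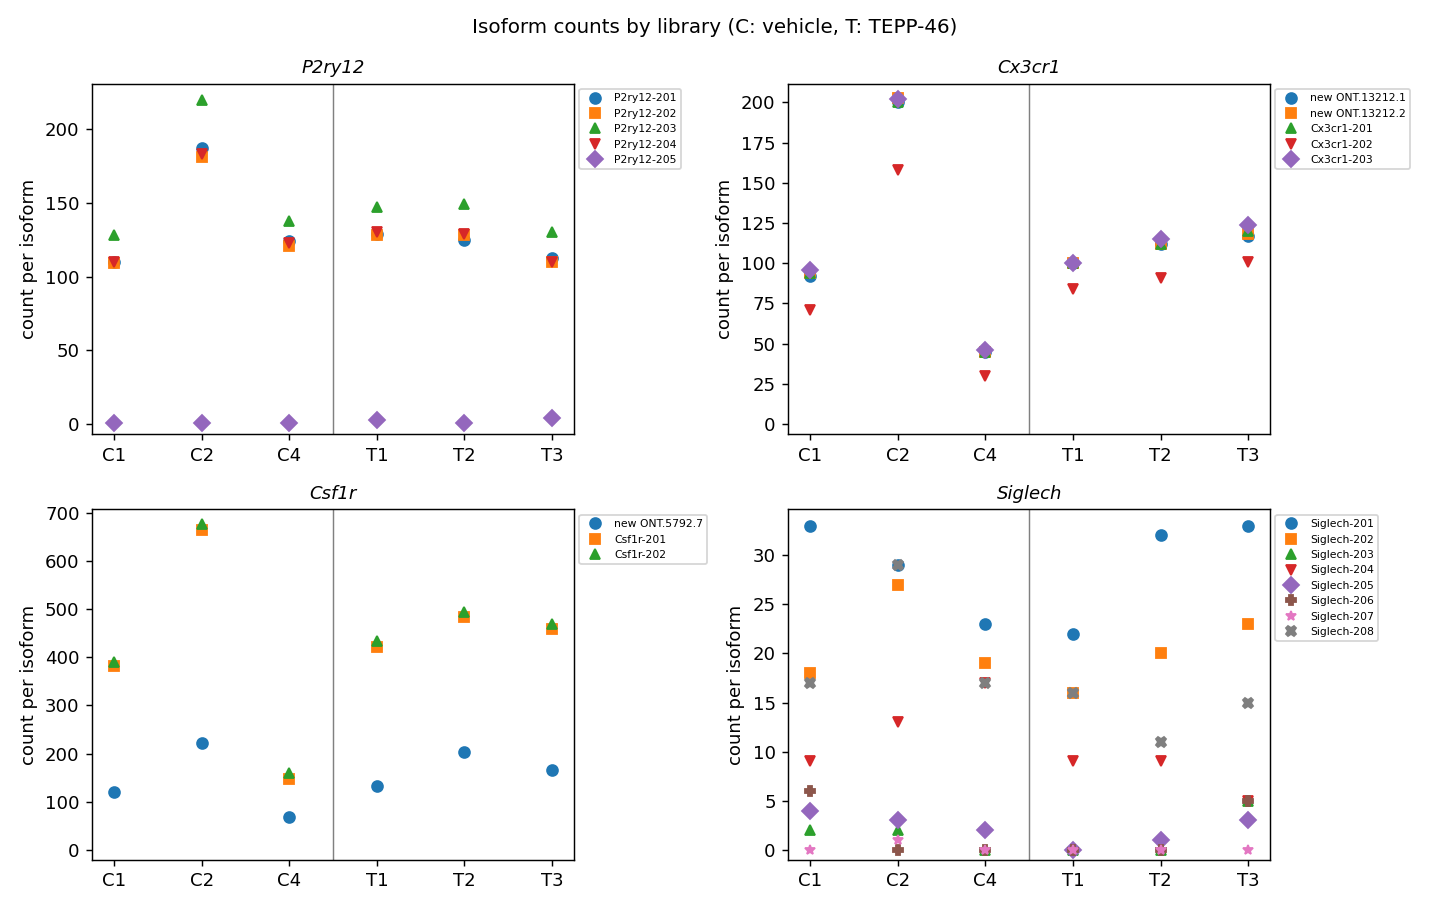
Raw counts of each isoform of P2ry12, Cx3cr1, Csf1r and Siglech in the 6 libraries, with new isoforms marked as such and panels on their own linear axes. For P2ry12 and Cx3cr1 most isoforms lie almost on top of each other in every library, while those of Siglech spread.

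For P2ry12 and Cx3cr1 the isoform rows hold little beyond the gene total. The 4 abundant P2ry12 isoforms share 2059 exon bases, have lengths of 2101 to 2344 bases and encode the same 1041 coding bases, with starts at different places. P2ry12-201 had 110, 187 and 124 counts in libraries C1, C2 and C4, against 129, 125 and 113 in T1, T2 and T3, and P2ry12-203 had 128, 220 and 138 and then 147, 149 and 130. The share of P2ry12-201 in the gene's counts varied over the libraries with an SD of 0.324 percentage points, where the binomial error of such a share would be 1.86 points. For Cx3cr1-201, 1 of 5 abundant isoforms of which 2 are new, the SD was 0.269 and the binomial error 1.94 points. Cx3cr1-202 varied more, with an SD of 1.19 and a binomial error of 1.77 points. The SD was also below the binomial error for Csf1r-201 (1.43 and 1.71 points), Csf1r-202 (0.777 and 1.71 points) and Siglech-202 (2.48 and 4.81 points). It was above it for the new Csf1r isoform (13.4% to 18.4%; SD 2.06, binomial error 1.24 points), for Siglech-201 (27.9% to 43.8%; 5.79 and 5.30 points) and for Siglech-208 (4.97 and 4.55 points).

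The gene total was 3.59 times the count of the most abundant isoform for P2ry12, 4.72 times for Cx3cr1, 2.32 times for Csf1r, 2.88 times for Siglech and 1.88 times for Gpr34. It was 1.00 to 1.06 times for P2ry13, Tmem119, Olfml3 and Selplg, whose counts came almost wholly from a single isoform. With the most abundant isoform as the gene count, the summed CPM of the 9 genes was 384 ± 189 in vehicle libraries and 402 ± 51.3 in TEPP-46 libraries (SD, n = 3 each), and edgeR called 0 of the 9.

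Isoform usage, meaning how a gene's counts divide among its isoforms, could be tested for Csf1r, Cx3cr1, Gpr34, P2ry12 and Siglech. edgeR's diffSpliceDGE with Simes p-values and Benjamini-Hochberg adjustment called 0 of these 5, against 0.0131% of the 7639 genes tested, and each had an adjusted p of 1.00. 0 of the 5 had an unadjusted p under 0.05, against 0.641% of all.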

How the data were processed

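Total RNA of perihematomal brain tissue was made into nanopore cDNA-PCR libraries, per the labels' protocols. The authors deposited raw counts per gene and per isoform for each library, per the file headers. Per the submitters' processing notes the build was GRCm38 and DESeq 1.10.1 was among the tools. Which aligner and counter were used, whether strand was used, and how a read that fits more than 1 isoform was counted is not given in the sources used here. A gene's count equalled the sum of isoform counts in 99.9% of genes and in all 9 studied. The 12 further per-library columns of the tables were left out. Libraries were put into groups by the letter of their column (C for vehicle, T for TEPP-46). The vehicle columns C1, C2 and C4 do not all match the sample numbers, so no column was tied to a numbered sample, and replicates have no order.

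Tests of genes and isoforms used edgeR 4.0.16 under R 4.3.3 (filterByExpr, TMM scaling, robust quasi-likelihood F test, group as the single term), adjusted by Benjamini-Hochberg over all features tested and called under 0.05. Isoform usage was tested with diffSpliceDGE. The script that tests genes was checked on simulated counts. DESeq2 1.42.0 was an alternative, with other scalings, no filter on low counts and each library left out. CPM used raw library totals. Log2 values and ratios used a pseudocount of 0.5 counts. Standard errors were derived from the fold change and its F statistic. Profiles were compared by the root mean square difference of centred log2 CPM.

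The 9 genes, the 17 other lists (171 genes, Siglech among them) and the rules were chosen with earlier results of these data known. All 9 genes are named with every library. For each other list the naming rule took the called genes, or else the 2 with the highest mean CPM, and it took the 5 genes most alike in profile and genes overlapping a member. Not all of these are reported here. The report lists the genes it names outside the rule. Promoter sequences are from RefSeq (GRCm38.p6).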

Additional observations from a re-analysis of the deposited data

How the results depend on the processing

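No paired analysis was possible because the vehicle columns C1, C2 and C4 do not all match the sample numbers of the labels, so no column could be tied to a numbered sample. None of the 9 genes, and none of their isoforms, was called under any setting run. Over all genes the count called was 85 with DESeq2 and 0 to 43 with each library left out, the 43 without C2. Over all isoforms it was 165 without the filter on low counts, 148 with DESeq2 and 0 to 178 with each library left out, the 178 again without C2. Genes with isoform usage called numbered 0 at a mean count of 10 or more and 0 to 1 with each library left out. With each library left out the median log2 fold change of the 9 genes ran from -0.30 to 0.47 and that of their isoforms from -0.34 to 0.47. P2ry12 (-0.37 to -0.01) and Siglech (-0.51 to -0.17) kept their sign. The log2 fold changes that changed sign ran from -0.061 to 0.80 for P2ry13, -0.091 to 0.47 for Tmem119, -0.42 to 0.62 for Cx3cr1, -0.21 to 0.70 for Csf1r, -0.38 to 0.36 for Gpr34, -0.42 to 0.76 for Olfml3, -0.21 to 0.31 for Selplg and -0.20 to 0.17 for Siglech-201. The log2 ratio to Csf1r ran from -0.15 to 0.20 for P2ry13, which was also -0.10 with a pseudocount of 5 counts, and from -0.32 to 0.10 for Tmem119. The cause of these changes was not tested. Other scalings and the filter changed no sign of a gene. P2ry13, with 8 to 26 counts per library, was limited most by depth.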
